A study of Mus musculus with 17 samples.

Results

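The genes described here detect RNA or DNA in the cytosol of a mouse cell, pass that signal on, or keep the cell's own nucleic acids from setting it off. They are the RNA sensors Ddx58, Ifih1, Dhx58 and Eif2ak2, the DNA sensor Mb21d1, the adaptors Mavs and Tmem173, and the restraining enzymes Adar, Trex1 and Samhd1. They were chosen by name for their place upstream of interferon, with no threshold on a measured value. All 10 were listed among the 23980 genes of each of the 2 deposited tables. Polyadenylated RNA was sequenced with strand information in 17 libraries of strain C57BL6/J. The table for leptotene/zygotene (L/Z) spermatocytes, germ cells that have just entered meiosis and were sorted from testes 3 to 4 weeks after birth, held 2 libraries each of wild type (WT), Pld6 knockout (KO) and Dnmt3l KO. The table for newborn (P0) testes, taken whole at 0 days of age and so made up largely of somatic cells around the prospermatogonia, held 2 WT, 4 Pld6 KO, 2 Dnmt3l KO and 3 Pld6/Dnmt3l double KO (DKO) libraries. Both mutations leave retrotransposons active in male germ cells, to an extent that depends on stage. The Pld6 product helps to make PIWI-interacting RNAs, and the Dnmt3l product is needed to methylate DNA in fetal germ cells. In P0 Pld6 KO testes the authors reported significant rises of some retrotransposon families. In P0 Dnmt3l KO testes they reported a rise of only a few retrotransposons, with little significance, and so a smaller impact than that of Pld6 KO. In the DKO they reported higher levels of these families than in Dnmt3l KO. They found larger rises in L/Z spermatocytes of both mutants. The comparisons below ask whether the genes that could detect retrotransposon RNA or DNA differed in level between genotypes.

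RIG-I (the product of Ddx58) and MDA5 (Ifih1) bind double-stranded or uncapped RNA and act through MAVS, a protein of the outer mitochondrial membrane. cGAS (Mb21d1) binds double-stranded DNA and makes a cyclic dinucleotide that activates STING (Tmem173) on the endoplasmic reticulum. Both routes lead to the kinase TBK1, the transcription factor IRF3 and type I interferon, and interferon in turn raises the transcription of many RNA sensors. ADAR edits adenosine to inosine in double-stranded RNA, TREX1 degrades DNA, and SAMHD1 destroys the deoxynucleotides needed for reverse transcription, so that loss of any of these enzymes can trigger the pathway in vivo.

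Interferon acts on many genes through the interferon-stimulated response element (ISRE). Promoters with its letters are shown because the members that carry them are among the RNA sensors set beside the interferon-stimulated genes below. RefSeq promoters of GRCm38.p6, windows of 300 bases from 250 before to 50 after a transcription start, were at hand for 8 of the 10 members (11 promoters), and Dhx58 and Tmem173 had no entry. The letters GAAA, any 2 bases and GAAA again, were searched on both strands. They stood in 3 of these 8 members, Ddx58, Ifih1 and Eif2ak2. By gene, they stood in 3.99% of all 27025 genes and in 8 of 16 genes on a list of interferon-stimulated genes. By promoter, the share was 3 of 11 for the members and 3.44% of all 32851 promoters. In the sequences, read 5′ to 3′ along the gene's strand, capitals mark the letters that match, which are centred 7, 37 and 23 bases after the start of Ddx58, Ifih1 and Eif2ak2. Ddx58 carries them on the opposite strand. Mavs is shown as a promoter without the letters. A match describes the letters in this window and is not a measured site, and other forms of the element were not searched.
Ddx58 (chr4:40239776-40240075, minus strand): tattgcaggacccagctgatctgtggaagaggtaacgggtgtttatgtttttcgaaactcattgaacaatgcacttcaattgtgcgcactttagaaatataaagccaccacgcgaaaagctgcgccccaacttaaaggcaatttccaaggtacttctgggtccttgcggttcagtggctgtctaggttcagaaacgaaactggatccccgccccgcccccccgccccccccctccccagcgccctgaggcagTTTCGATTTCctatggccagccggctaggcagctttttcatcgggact
Ifih1 (chr2:62646206-62646505, minus strand): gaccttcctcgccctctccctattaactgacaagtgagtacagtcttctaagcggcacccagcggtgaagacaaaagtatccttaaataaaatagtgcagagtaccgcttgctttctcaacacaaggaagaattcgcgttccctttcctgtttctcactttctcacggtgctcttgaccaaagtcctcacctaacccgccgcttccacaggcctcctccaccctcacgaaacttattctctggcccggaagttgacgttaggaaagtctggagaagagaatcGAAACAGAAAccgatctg
Eif2ak2 (chr17:78882523-78882822, minus strand): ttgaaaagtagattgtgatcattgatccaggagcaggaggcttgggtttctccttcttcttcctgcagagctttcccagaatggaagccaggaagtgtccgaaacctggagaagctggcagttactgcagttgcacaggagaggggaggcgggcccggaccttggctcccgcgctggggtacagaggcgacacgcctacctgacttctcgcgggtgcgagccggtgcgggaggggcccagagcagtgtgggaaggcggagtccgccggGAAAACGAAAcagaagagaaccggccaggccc
Mavs (chr2:131233813-131234112, plus strand): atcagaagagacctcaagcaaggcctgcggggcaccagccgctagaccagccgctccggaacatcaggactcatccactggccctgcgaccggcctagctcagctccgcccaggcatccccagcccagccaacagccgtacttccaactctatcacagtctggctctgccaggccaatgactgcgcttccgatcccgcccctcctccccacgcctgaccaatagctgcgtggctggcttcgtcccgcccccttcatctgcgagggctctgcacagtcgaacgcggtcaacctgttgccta

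Libraries held 5194238 to 14578341 fragments assigned to genes at L/Z and 9900346 to 23498968 at P0. Pld6 had 0 counts in both L/Z Pld6 KO libraries and in all 3 DKO libraries, and 0 to 2 counts in the P0 Pld6 KO libraries, against 40 to 352 in WT. Dnmt3l had 0 counts in both L/Z Dnmt3l KO libraries and 0 to 3 counts in the P0 Dnmt3l KO and DKO libraries, against 11 to 72 in WT. Among the P0 Pld6 KO libraries, replicate 1 stood apart, with 6 counts of Dnmt3l against 30 to 145 in the other 3 and the lowest summed level of 6 prospermatogonium markers (103 CPM, counts scaled to a common library size, against 295 to 387). Markers of L/Z spermatocytes (10 genes) summed to 2010 to 7423 CPM in the sorted cells and to 87.1 to 269 CPM at P0. Sertoli cell markers (9 genes) summed to 111 to 631 CPM in the sorted cells, so RNA of somatic cells was present there too. Marker sums of the sorted cells also differed between WT and both mutants, and fewer cells of a type cannot be told apart from less RNA per cell. Spermatogonium markers (7 genes) summed to 1339 and 1282 CPM in WT, 1157 and 1179 for Pld6 KO, with 730 and 1155 for Dnmt3l KO. Markers of later germ cells (10 genes) summed to 49.2 and 72.4 CPM in WT, 17.0 and 32.4 for Pld6 KO, with 19.0 and 14.1 for Dnmt3l KO. The 45S ribosomal precursor Rn45s was rich in a pair of L/Z libraries, taking 8.27% of the first WT and 8.06% of the first Pld6 KO library, against 0.134% to 0.301% in the other 4 libraries.

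Levels were compared between genes in FPKM, which divides fragments by transcript length and library size. The 2 tables were normalized separately, so levels at the 2 stages stand side by side without a test. In WT L/Z spermatocytes the restraining enzymes and Mavs led and every sensor was low. Samhd1 stood at 18.1 ± 0.371 FPKM (SD, n = 2), Adar at 15.9 ± 1.96, Mavs at 12.5 ± 0.503 and Trex1 at 5.39 ± 0.328. Mb21d1 (0.956), Dhx58 (0.955) and Eif2ak2 (0.88) could not be ordered, since the ranges of their WT libraries overlapped, and Ifih1 (0.524 ± 0.201) overlapped Eif2ak2 in turn. Below all of these came Ddx58 at 0.276 ± 0.0131 and Tmem173 at 0.149 ± 0.0305. Samhd1 lay above 77.6% of all listed genes in WT L/Z spermatocytes, Ddx58 above 37.2% and Tmem173 above 33.2%. Tmem173 had 3 and 4 counts in WT, 5 and 2 for Pld6 KO, with 0 and 13 for Dnmt3l KO, and it was the member that did not pass the filter on low counts at L/Z, so 9 members were tested there and 10 at P0. Without the filter its log2 fold changes were 0.4 (FDR 0.963) with Pld6 KO and 0.9 (FDR 0.701) with Dnmt3l KO. At the depth of Dnmt3l KO replicate 1, a count of 0 allows up to 0.578 CPM (3 counts, counting error alone).

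In WT P0 testes Samhd1 (20.8 ± 0.255 FPKM) and Mavs (20.1 ± 2.68) were highest, and their ranges overlapped. Trex1 followed at 12.2 ± 0.888, then Eif2ak2 (10.6 and 9.45 in the single libraries) and Adar (8.87 ± 1.76), the last pair with overlapping ranges. Ddx58 (4.52 ± 1.25), Mb21d1 (4.0 ± 0.0466) and Tmem173 (3.89 ± 0.294) followed, each overlapping the next. Ifih1 (0.968 ± 0.0821) and Dhx58 (0.667 ± 0.00159) were the lowest members at P0. P0 testes are mostly somatic and L/Z libraries mostly germ cells, so cell type, age and read length (100 against 50 bp) cannot be told apart in this contrast. In whole testes, fewer cells of a type and less RNA per cell cannot be told apart either.

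**Figure D1:**
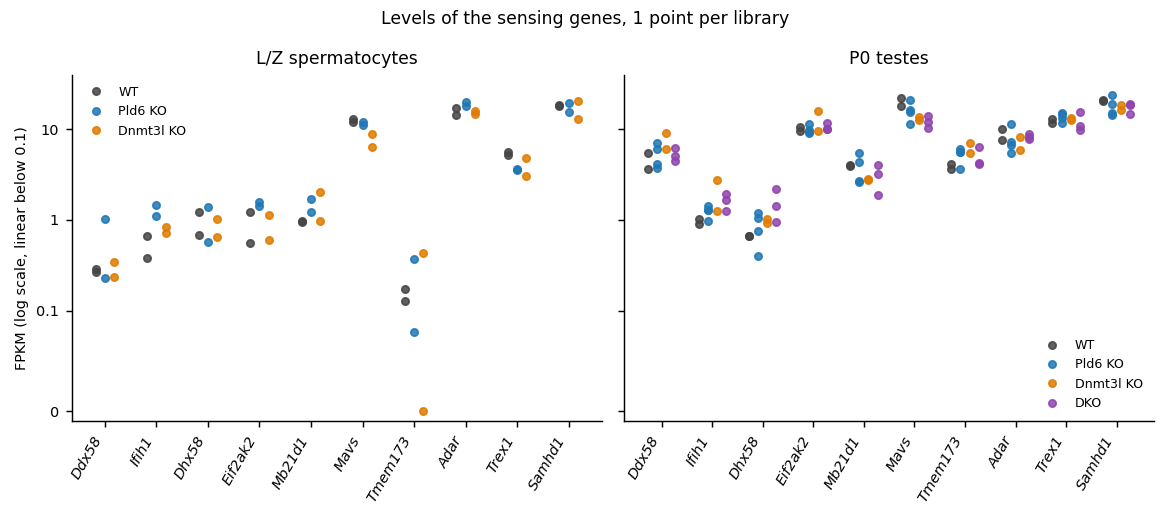
Each point is the FPKM of a gene in 1 library (vertical axis, log scale and linear below 0.1), for the 10 members in L/Z spermatocytes (left) and P0 testes (right), coloured by genotype. Samhd1, Mavs, Adar and Trex1 were the 4 highest members in WT L/Z spermatocytes, and Ddx58, Ifih1 and Tmem173 stayed under 2 FPKM in every L/Z library.

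No member passed the threshold in any comparison. A gene was called where edgeR's quasi-likelihood test gave a Benjamini-Hochberg adjusted p (false discovery rate, FDR) under 0.05 over all genes tested and a fold change over 2. At L/Z, 0 of 9 members were called in Pld6 KO against WT (0.225% of 14662 genes were), 0 of 9 in Dnmt3l KO against WT (5.47%, or 802 genes, which became 1 without Dnmt3l KO replicate 1 and 149 without WT replicate 1) and 0 of 9 in Dnmt3l KO against Pld6 KO (0.0477%). At P0, 0 of 10 were called in Pld6 KO against WT (0.00629% of 15901 genes), Dnmt3l KO against WT (0.0%), DKO against WT (0.0126%), DKO against Pld6 KO (0.0%) and DKO against Dnmt3l KO (0.0755%). Before adjustment, p under 0.05 was reached by 1 member in each L/Z comparison with WT (9.17% of all genes for Pld6 KO and 26.7% for Dnmt3l KO), by 0 in P0 Pld6 KO (5.06%), by 4 in P0 Dnmt3l KO (12.9%) and by 3 in the DKO (7.97%). DESeq2 called 0 members in each of these comparisons and gave the same numbers before adjustment, and limma on log2(FPKM + 1) called 0 and gave 1, 1, 0, 3 and 2. The median log2 fold change of the members was 0.26 and -0.09 in L/Z Pld6 KO and Dnmt3l KO, where that of all genes was 0.0 and -0.04. At P0 it was 0.07 with Pld6 KO, 0.25 with Dnmt3l KO and 0.05 with both, where that of all genes was 0.02, 0.03 and 0.01.

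**Figure D2:**
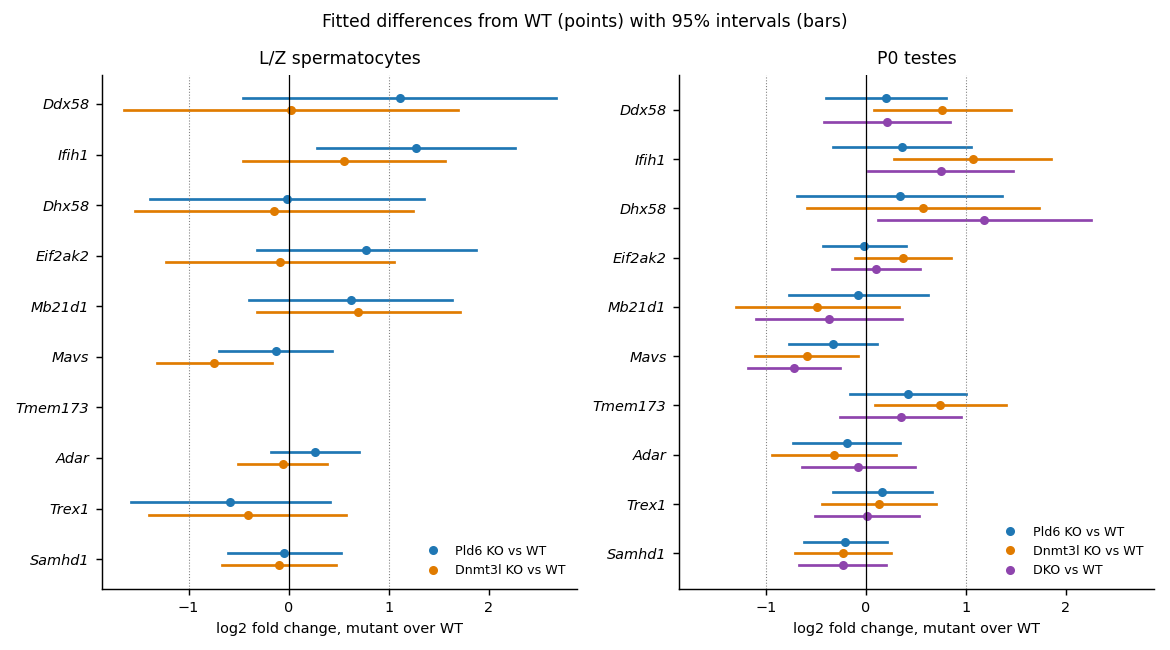
Points give the fitted log2 fold change of each member over WT (horizontal axis) and bars its 95% interval, at L/Z (left) and P0 (right); dotted lines mark a 2-fold difference. Adar and Samhd1 had intervals inside the dotted lines in all 5 comparisons, and Ddx58 and Dhx58 at L/Z had the widest.

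The RNA sensors were low in L/Z spermatocytes, and their highest values fell in Pld6 KO libraries. Ifih1 (chromosome 2, 62595618 to 62646255, minus strand, GRCm38), which encodes the sensor of long double-stranded RNA, stood at 3.56 and 2.04 CPM in the 2 WT libraries, 7.71 and 5.91 for those of Pld6 KO, with 4.4 and 3.86 for Dnmt3l KO. The 3 groups did not overlap, WT being lowest and Pld6 KO highest. Ifih1 was the single member of 9 above WT without overlap in Dnmt3l KO, where 28.1% of all genes were above and 27.5% below, and 2 members were below (Mavs and Trex1). The log2 fold change in Pld6 KO was 1.27 (SE 0.45, 95% interval 0.28 to 2.26), with an edgeR FDR of 0.445. In Dnmt3l KO it was 0.55 (interval -0.46 to 1.56, FDR 0.467), and it became 1.0 without WT replicate 1 and 0.21 without WT replicate 2. The Ifih1 counts behind these values were 22 to 75 a library.

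Ddx58 (chromosome 4, 40203777 to 40239825, minus strand), which encodes RIG-I, stood at 1.27 and 1.36 CPM in WT, 4.8 and 1.1 for Pld6 KO, with 1.6 and 1.15 for Dnmt3l KO at L/Z. Pld6 KO replicate 1 held the highest value and replicate 2 the lowest of all 6, so the groups overlapped. The log2 fold change of 1.11 in Pld6 KO (interval -0.46 to 2.67, FDR 0.649) became -0.25 without Pld6 KO replicate 1 and 1.85 without replicate 2, and in Dnmt3l KO the value was 0.02. Pld6 KO replicate 1 was rich in Rn45s, as was WT replicate 1. A factor for these libraries was among the alternative fits. Over the alternatives other than leaving out a library, the Ddx58 value in Pld6 KO lay between 0.3 and 1.15. The factor marked 1 library of each compared group, so it cannot separate Rn45s from other differences of those libraries. In Pld6 KO replicate 1, 7 lymphocyte markers summed to 32.3 CPM, against 7.25 to 15.8 CPM in the other 5 libraries. The part of lymphocytes in the Ddx58 value was not tested.

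Eif2ak2 (chromosome 17, 78850504 to 78882572, minus strand) encodes PKR, the kinase that halts translation on binding double-stranded RNA. It stood at 5.0 and 2.3 CPM in WT L/Z libraries, 5.82 and 6.62 for Pld6 KO, with 4.6 and 2.5 for Dnmt3l KO. Both Pld6 KO libraries lay above all others, with a log2 fold change of 0.77 over WT (interval -0.32 to 1.87, FDR 0.65) that became 1.44 without WT replicate 1 and 0.32 without WT replicate 2. In Dnmt3l KO the Eif2ak2 value was -0.09. Dhx58 (chromosome 11, 100694884 to 100704271, minus strand), whose product LGP2 modulates the other RNA helicases, ranged from 1.26 to 3.05 CPM over the 6 libraries with overlapping groups. Its log2 fold changes were -0.02 in Pld6 KO and -0.15 in Dnmt3l KO, with intervals that reach past 2-fold in both directions.

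Across all tested genes at L/Z, 21.6% had both Pld6 KO libraries above both WT libraries and 21.3% had them below, so the 4 members above (Ifih1, Eif2ak2, Mb21d1 and Adar) and 2 below (Mavs and Trex1) of 9 are to be read beside those shares. The 4 RNA sensors summed to 12.5 and 7.23 CPM in WT, 21.4 and 14.9 for Pld6 KO, with 12.0 and 9.8 for Dnmt3l KO. Macrophages express RNA sensors at high levels, and 11 macrophage markers, none at 0 over the 6 libraries, summed to 44.6 and 10.3 CPM in WT, 47.8 and 26.6 for Pld6 KO, with 41.6 and 102 for Dnmt3l KO. The sum of the sensors was higher in both Pld6 KO libraries than in the other 4. Within WT and within Pld6 KO, the library with the higher macrophage sum had the higher sensor sum. Within Dnmt3l KO the order was reversed. The part of macrophages, or of the shift in germ cell markers given above, in the sensor values was not tested.

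**Figure D3:**
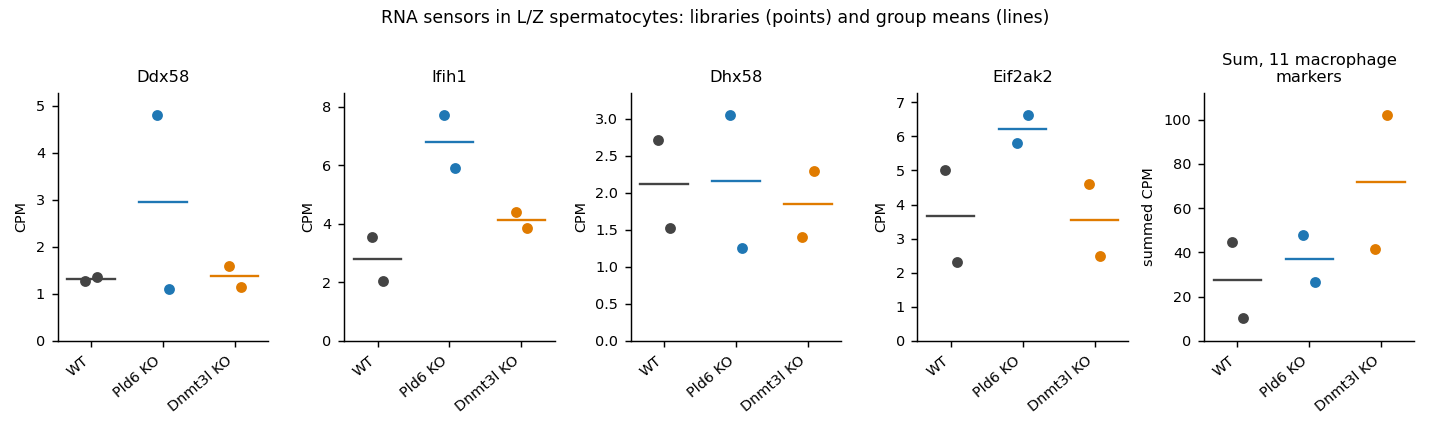
Points are L/Z libraries and lines group means, for Ddx58, Ifih1, Dhx58 and Eif2ak2 (CPM) and for the sum of 11 macrophage markers (CPM). Both Pld6 KO libraries lay above the other 4 for Ifih1 and Eif2ak2, and 1 of them for Ddx58.

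In P0 testes the highest value of 3 of the 4 RNA sensors fell in a single library, Dnmt3l KO replicate 2. Ifih1 stood at 5.61 and 4.87 CPM in WT, at 5.2, 6.99, 7.02 and 7.75 for Pld6 KO, at 6.93 and 15.0 for Dnmt3l KO, and at 10.6, 6.9 and 9.05 in the DKO. Both Dnmt3l KO and all 3 DKO libraries lay above both WT libraries, and 1 of the 4 Pld6 KO libraries lay within the WT range. The log2 fold change was 0.36 in Pld6 KO (interval -0.33 to 1.05, FDR 0.97), 1.07 in Dnmt3l KO (SE 0.36, interval 0.28 to 1.85, FDR 0.312) and 0.75 in the DKO (interval 0.02 to 1.47, FDR 0.604). Without Dnmt3l KO replicate 2, the Dnmt3l KO value was 0.38. Dnmt3l KO replicate 1 stood apart in another way, with 269 CPM of L/Z spermatocyte markers against 87.1 to 142 in the other 10 libraries. Its later germ cell markers summed to 92.1 CPM, against 4.79 to 15.2 in those libraries. Without Dnmt3l KO replicate 1, the Ifih1 value in Dnmt3l KO was 1.51.

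Ddx58 at P0 stood at 17.8 and 26.1 CPM in WT, 17.8, 29.3, 20.0 and 33.8 for Pld6 KO, 29.5 and 44.9 for Dnmt3l KO, and 30.3, 24.6 and 21.6 in the DKO. Only Dnmt3l KO was separate from WT, with a log2 fold change of 0.76 (interval 0.08 to 1.45, FDR 0.349) that became 0.4 without replicate 2 and 0.47 without WT replicate 1. In Pld6 KO, no member of 10 was separate from WT in either direction (5.83% of all genes were above and 5.69% below). In Pld6 KO and the DKO the Ddx58 values were 0.2 and 0.21, both with intervals inside 2-fold. Dhx58 had its 2 highest P0 values in the DKO, at 5.01, 2.2 and 3.27 CPM, against 1.53 and 1.51 in WT. Its DKO log2 fold change was 1.18 (interval 0.12 to 2.25, FDR 0.569) and became 0.85 without DKO replicate 1, and these rest on 18 counts in each WT library. DKO replicate 1, the highest for Dhx58, had 4.43% of fragments in Rn45s against at most 0.981% in the other 10 P0 libraries, whose part was not tested. Pld6 KO libraries ranged from 0.908 to 2.72 CPM for Dhx58 and Dnmt3l KO libraries stood at 2.37 and 2.17, with log2 fold changes of 0.34 and 0.57.

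Eif2ak2 was close to the WT level in most P0 libraries, at 45.2 and 39.7 CPM in WT, 38.6 to 48.9 in Pld6 KO and 42.8 to 50 in the DKO. In Dnmt3l KO it stood at 41.2 in replicate 1 and 68.2 in replicate 2. The log2 fold change in Dnmt3l KO was 0.37 (interval -0.11 to 0.85), and without replicate 2 it was -0.07. In the other mutants it was -0.02 (Pld6 KO) and 0.1 (DKO). The intervals of Eif2ak2 lay inside 2-fold in all 3 P0 comparisons with WT. Of the 10 members, 5 were higher in both Dnmt3l KO libraries than in both WT libraries (Ddx58, Ifih1, Dhx58, Tmem173 and Trex1) and 3 were lower (Mavs, Mb21d1 and Samhd1), where 25.3% and 24.3% of all genes were.

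Since interferon raises RNA sensor transcription, the level of interferon-stimulated genes is set beside them. A list of 22 such genes that holds no member summed to 179 and 167 CPM in WT, 171, 178, 176 and 257 for Pld6 KO, 267 and 381 for Dnmt3l KO, and 309, 268 and 220 in the DKO. Every Dnmt3l KO and DKO library thus lay above every WT library, and Pld6 KO replicate 4 was the highest of its group for this sum, Ifih1, Ddx58, Dhx58 and Eif2ak2. In Dnmt3l KO 0 of the 22 genes were called by edgeR (13 at p under 0.05 before adjustment, and 3 called by DESeq2), and 21 had a log2 fold change above 0, with a median of 1.11 beside 0.03 for all genes. Without Dnmt3l KO replicate 2 the median was 0.54 and 18 were above 0, and without replicate 1 it was 1.57. In the DKO 0 were called (9 before adjustment, and 1 by DESeq2), 19 were above 0 and the median was 0.74. In Pld6 KO 0 were called (2 before adjustment), 15 were above 0 and the median was 0.38. These comparisons share their WT libraries. Macrophage markers summed to 112 and 122 CPM in WT, 105 to 167 for Pld6 KO, 135 and 155 for Dnmt3l KO, and 122 to 201 in the DKO. Leydig cell markers (6 genes) summed to 1520 and 1565 CPM in the WT testes, to 1701, 2343, 1881 and 3608 for Pld6 KO, to 1962 and 2666 for Dnmt3l KO and to 1264 to 1738 in the DKO, so that they were high in Pld6 KO replicate 4 and Dnmt3l KO replicate 2. Sertoli cell markers were lower in all 9 mutant libraries (3053 to 4128 CPM) than in WT (4523 and 4722). The part of any of these cell types in the values above was not tested.

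**Figure D4:**
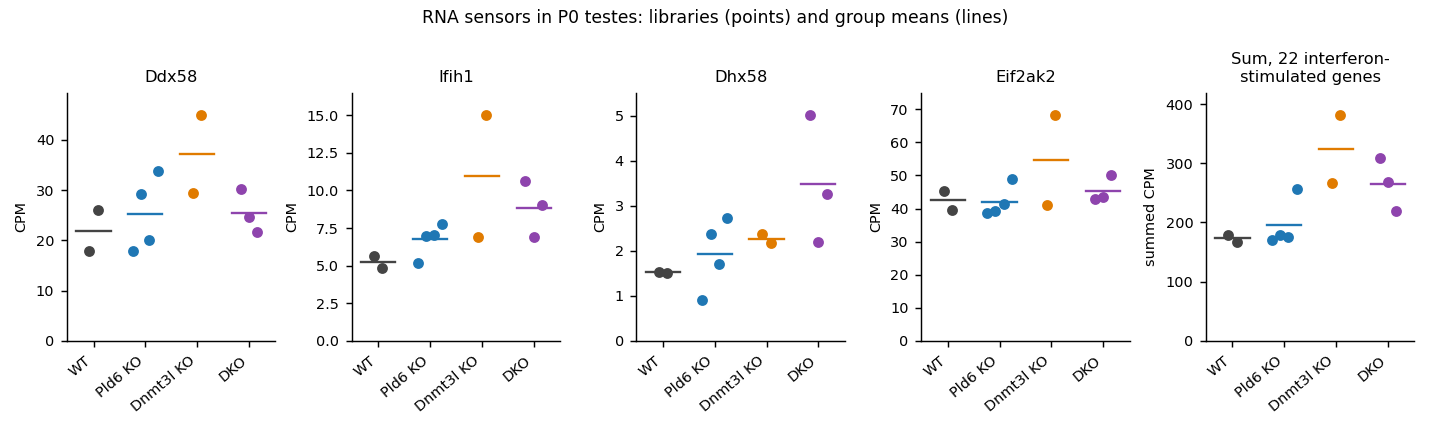
Points are P0 libraries and lines group means, for Ddx58, Ifih1, Dhx58 and Eif2ak2 (CPM) and for the sum of 22 interferon-stimulated genes (CPM). A single Dnmt3l KO library was highest for Ddx58, Ifih1, Eif2ak2 and the sum, and a DKO library was highest for Dhx58.

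By a rule that took the member with the lowest FDR of each stage, Ifih1 at P0 and Mavs at L/Z were compared with all genes of at least 50 counts on average, by Pearson's r of log2 CPM over libraries. For Ifih1 over the 11 P0 libraries, the 3 genes most like it of 12546 were Oasl2 (r = 0.956), Parp14 (0.908) and Nudt16 (0.892). Oasl2 and Parp14 are on the list of interferon-stimulated genes. Among the members that reached this count, r with Ifih1 was 0.804 for Eif2ak2, 0.706 for Ddx58, 0.205 for Adar and 0.0762 for Tmem173. It was -0.0923 for Samhd1, -0.3 for Trex1, -0.58 for Mb21d1 and -0.604 for Mavs. Dnmt3l KO replicate 2 held the highest P0 value of Ifih1, Eif2ak2 and Ddx58 alike. For Mavs over the 6 L/Z libraries, the nearest of 11031 genes were Cdc42se1 (0.999), Sec22c (0.998) and Mapre2 (0.995). These values describe libraries that share genotypes, depth and cell makeup, and over 6 libraries a high r is easily reached among so many genes.

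Mavs (chromosome 2, 131234063 to 131248025, plus strand), the adaptor of both RIG-I and MDA5, was lower in Dnmt3l KO than in WT in every library at both stages, without passing the threshold. At L/Z it stood at 35.2 and 33.2 CPM in WT, 32.0 and 30.4 for Pld6 KO, with 16.4 and 23.9 for Dnmt3l KO. The 3 groups did not overlap. The log2 fold change in Dnmt3l KO was -0.75 over WT (SE 0.26, interval -1.32 to -0.17), with an FDR of 0.101 that was the lowest of any member, and -0.61 over Pld6 KO (interval -1.19 to -0.04, FDR 0.26). Over all 9 members this comparison gave -1.09 (Ddx58) to 0.17 (Trex1). Dnmt3l KO lay below Pld6 KO without overlap for 4 of 9 members (Mavs, Ifih1, Eif2ak2 and Adar) and above it for 0, where 26.2% and 26.9% of all genes did. For Mavs in Pld6 KO, the log2 fold change was -0.13 over WT (interval -0.7 to 0.43, FDR 0.897). Leaving out single libraries gave -1.06 to -0.53 for Dnmt3l KO against WT, the value nearest 0 being that without Dnmt3l KO replicate 1, the shallowest library. In the same libraries the L/Z spermatocyte markers summed to 2010 and 3591 CPM in WT and to 7423 and 6550 in Dnmt3l KO, while Sertoli cell markers summed to 631 and 408 in WT and to 384 and 111 in Dnmt3l KO. Their part in the Mavs difference was not tested.

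Mavs at P0 stood at 51.5 and 61.5 CPM in WT, 43.4, 46.2, 57.9 and 32.0 for Pld6 KO, 36.3 and 38.6 for Dnmt3l KO, and 29.4, 39.3 and 34.2 in the DKO. All Dnmt3l KO and DKO libraries lay below both WT libraries, and Pld6 KO replicate 3 lay within the WT range. Log2 fold changes were -0.33 in Pld6 KO (interval -0.77 to 0.11), -0.59 in Dnmt3l KO (interval -1.11 to -0.08, FDR 0.344) and -0.72 in the DKO (SE 0.22, interval -1.18 to -0.26, FDR 0.41). Leaving out single libraries moved the DKO value between -0.87 and -0.59. Sertoli cell markers were lower in the same libraries, at 4722 and 4523 CPM in WT against 3645 and 3273 in Dnmt3l KO and 3053 to 4128 in the DKO, and their part in the Mavs difference was not tested. In the DKO 2 of 10 members were lower than WT without overlap (Mavs and Samhd1) and 2 were higher (Ifih1 and Dhx58), where 13.4% and 15.7% of all genes were.

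Tmem173 (chromosome 18, 35733678 to 35740554, minus strand; Sting1 in RefSeq) encodes the adaptor of the DNA route and passed the filter on low counts at P0 alone. There it stood at 7.9 and 8.73 CPM in WT, 12.9, 11.8, 7.96 and 11.9 for Pld6 KO, 15.8 and 12.1 for Dnmt3l KO, and 9.17, 13.9 and 8.68 in the DKO. Both Dnmt3l KO libraries were above WT (log2 fold change 0.74, interval 0.09 to 1.4, FDR 0.349), and Pld6 KO (0.42) and the DKO (0.35, or 0.1 without DKO replicate 2) overlapped it. The DKO departed by -0.82 from the sum of both single log2 fold changes (interval -1.64 to 0.01, FDR 0.46).

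Mb21d1 (chromosome 9, 78430518 to 78443237, minus strand; Cgas in RefSeq) encodes the DNA sensor. At L/Z it stood at 3.73 and 3.57 CPM in WT, 4.65 and 6.47 for Pld6 KO, with 3.6 and 7.87 for Dnmt3l KO. Log2 fold changes were 0.62 in Pld6 KO (interval -0.4 to 1.63) and 0.69 in Dnmt3l KO (interval -0.32 to 1.71), and the second became -0.02 without Dnmt3l KO replicate 2, the library with the highest macrophage sum, whose part was not tested. The first became 0.35 without Pld6 KO replicate 2. At P0 both WT libraries were close together (15.8 and 15.4 CPM), and the mutants spread on both sides, at 21.4, 10.5, 16.9 and 10.3 for Pld6 KO, 11 and 11.2 for Dnmt3l KO, and 7.36, 12.7 and 15.8 in the DKO. The highest of these was Pld6 KO replicate 1, the library poor in prospermatogonium markers. Log2 fold changes were -0.08, -0.49 (interval -1.3 to 0.33) and -0.37 (interval -1.1 to 0.36), with FDR of 0.993, 0.587 and 0.839, and the DKO value became -0.13 without replicate 1.

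**Figure D5:**
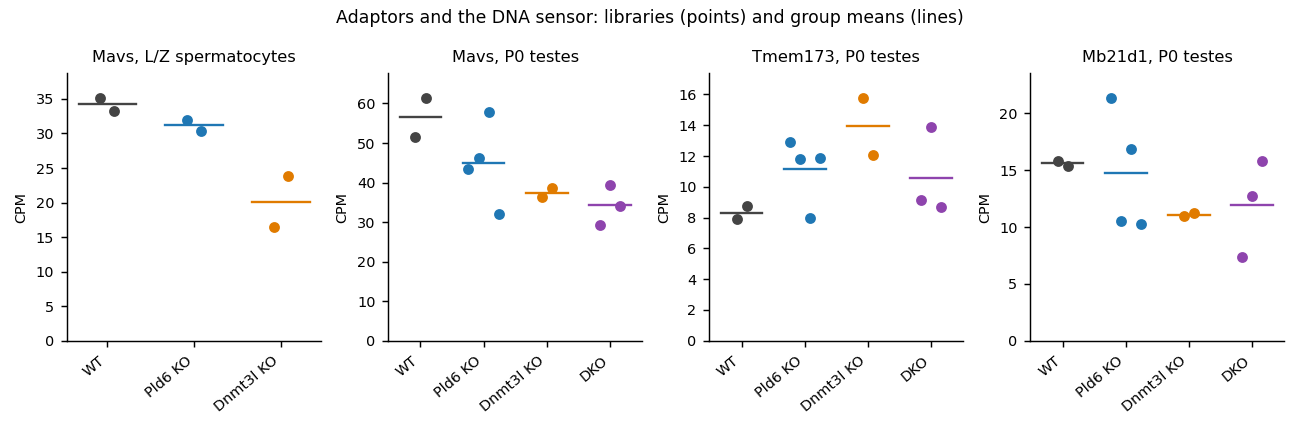
Points are libraries and lines group means in CPM, for Mavs at L/Z and P0 and for Tmem173 and Mb21d1 at P0. Both Dnmt3l KO libraries lay below WT for Mavs at each stage, and above WT for Tmem173.

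Of the restraining enzymes, Adar and Samhd1 had intervals inside 2-fold in every comparison with WT at both stages. Adar (chromosome 3, 89714469 to 89753455, plus strand) stood at 98.5 and 82.4 CPM in WT L/Z libraries, 113 and 104 for Pld6 KO, with 88.8 and 84.2 for Dnmt3l KO. At P0 it ranged over 44.2 to 59.3 in WT, 32.1 to 67.1 for Pld6 KO, 34.8 to 48.1 for Dnmt3l KO and 46.0 to 53.0 in the DKO. Its log2 fold changes over WT lay between -0.32 and 0.26 in the 5 comparisons, with intervals from -0.94 to 0.7. Adar overlaps Chrnb2 on the opposite strand, which the strand-specific libraries can separate, and Chrnb2 stood at 1.16 to 5.23 CPM.

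Samhd1 (chromosome 2, 157097534 to 157135096, minus strand) stood at 67.8 and 66.0 CPM in WT L/Z libraries, 72.1 and 57.7 for Pld6 KO, with 47.2 and 76.9 for Dnmt3l KO. The Dnmt3l KO libraries held both the lowest and the highest value of the stage. At P0 it stood at 80.1 and 77.7 in WT, 54.8 to 89.8 for Pld6 KO, 63.7 and 71.1 for Dnmt3l KO, and 56.8 to 72.7 in the DKO. Log2 fold changes over WT lay between -0.23 and -0.05, and all 5 intervals lay within -0.71 and 0.52, so a 2-fold difference in Samhd1 is outside each of them. At P0 this holds for whole testes, where levels in the prospermatogonia alone were not measured.

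Trex1 (chromosome 9, 109057932 to 109059723 in RefSeq, minus strand) overlaps Atrip on the same strand by 1802 bases in GENCODE, where its extent differs from these RefSeq positions. Fragments of the shared bases could be assigned to either gene by Cuffdiff. With that limit, Trex1 stood at 4.49 and 4.85 CPM in WT L/Z libraries, 3.05 and 3.15 for Pld6 KO, with 2.6 and 4.22 for Dnmt3l KO, from 13 to 59 counts. Both mutants were below WT without overlap, with log2 fold changes of -0.59 (interval -1.58 to 0.41) and -0.41 (interval -1.4 to 0.57), the second becoming -0.84 without Dnmt3l KO replicate 2 and -0.16 without replicate 1, and Atrip itself stood at 23.5 to 33.6 CPM. At P0 Trex1 ranged from 8.97 to 14.6 CPM over all 11 libraries, and its 3 log2 fold changes (0.16, 0.13 and 0.01) had intervals inside 2-fold.

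Combining the mutations showed no called departure from the single mutants. Against Pld6 KO, the largest member value in the DKO was Dhx58 (log2 fold change 0.84, interval 0.0 to 1.69, FDR 0.824), and 9 of 10 intervals lay inside 2-fold, the other log2 fold changes lying between -0.39 and 0.39. Dhx58 was the 1 member of 10 with p under 0.05 before adjustment (6.02% of all genes), and no member was separate from Pld6 KO, where 3.31% of genes were above and 3.04% below. Against Dnmt3l KO it was Dhx58 again at 0.61 (FDR 0.505), followed by Ddx58 at -0.55 (FDR 0.32), and 7 of 10 intervals lay inside 2-fold, with the other 8 values between -0.39 and 0.24. Departure from additivity, tested in the same fit, was called in 0 of 10 members and 0.0% of all genes at an FDR under 0.05. Before adjustment, 0 members reached p under 0.05 in edgeR (10.9% of genes did) and 1 in DESeq2. The member values of this departure lay between -0.82 (Tmem173) and 0.44 (Adar). These contrasts share P0 libraries with one another and with the comparisons against WT.

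The effect of each mutation was also compared between the stages. For Pld6 KO, the difference between the L/Z and the P0 effect was called in 0 of 10 members (0.0121% of 16547 genes; 0 before adjustment in edgeR and DESeq2 and 1 in limma, against 9.52% of genes), the lowest FDR being 0.549 for Trex1 (-0.78), with the other 9 values between -0.4 and 0.87. For Dnmt3l KO it was called in 0 of 10 (0.665%; 0 before adjustment in all 3, against 17.2% of genes in edgeR). Mb21d1 had the lowest FDR, with an L/Z effect greater by 1.17 on the log2 scale (interval -0.08 to 2.42, FDR 0.324). Tmem173, tested here though it did not pass the filter among L/Z libraries, gave -5.5 to 0.88 when single libraries were left out. The Mavs effects of Dnmt3l KO at the 2 stages differed by -0.18 (interval -0.97 to 0.61), and the other 8 values lay between -0.81 and 0.28.

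Other genes of the pathway were taken from 5 lists. At L/Z in Dnmt3l KO, 3 of them passed the threshold, where 5.47% of all 14662 genes did. With 24, 11, 10, 9 and 15 genes tested in the lists there, the 3 calls are to be read beside that share. None passed the threshold in any other comparison with WT. Tbk1, the kinase on which both routes converge, stood at 70.9 and 102 CPM in WT, 86.5 and 128 for Pld6 KO, with 204 and 147 for Dnmt3l KO, and rose with a log2 fold change of 1.02 in Dnmt3l KO (SE 0.27, FDR 0.0445). Tbkbp1, which encodes a TBK1-binding protein, fell by 1.14 on the log2 scale (FDR 0.0439), from 34.9 and 47.9 CPM in WT to 21.2 and 16.7, with 19.8 and 30.6 in Pld6 KO. Mov10, an RNA helicase that restricts retrotransposons, fell by 1.15 on the log2 scale (SE 0.27, FDR 0.0316), from 145 and 121 CPM to 42.0 and 76.6, with 129 and 130 in Pld6 KO. These calls rest on few libraries, and the shift in germ cell and Sertoli cell markers between WT and Dnmt3l KO given above ran through the same libraries, its part not tested. Tbkbp1 lost its call when any 1 of the 4 WT and Dnmt3l KO libraries was left out, Tbk1 without WT replicate 1 or either Dnmt3l KO library, Mov10 without WT replicate 1 or Dnmt3l KO replicate 1, and all 3 once GC content and length entered the fit as an offset.

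By list, signalling downstream of the adaptors had 1 of 24 tested genes called higher and 1 called lower in L/Z Dnmt3l KO (median log2 fold change 0.03). Other limits on self nucleic acids had 0 of 11 higher and 1 lower (median -0.17), where 5.47% of all genes were called in either direction. In that comparison 0 genes were called of 10 other nucleic acid sensors, 9 genes of interferon, its receptor and its signalling, and 15 interferon-stimulated genes (by edgeR, with 2, 1 and 3 at p under 0.05 before adjustment). Their medians were 0.04, -0.2 and -0.02, beside -0.04 for all genes. Among the other sensors Dhx36 had the lowest p there (log2 fold change 0.71, FDR 0.0794), and among the genes of interferon signalling it was the kinase gene Tyk2 (-0.74, FDR 0.0904), before Jak1 (0.37, FDR 0.266). The 2 interferon-stimulated genes with the lowest p were Cxcl10, a chemokine (log2 fold change 2.06, FDR 0.108), and Rsad2, an antiviral enzyme (1.5, FDR 0.138). In L/Z Pld6 KO, edgeR called 0 genes in all 5 lists, with medians of 0.28 for the other sensors, 0.17 for downstream signalling, 0.0 for other limits, 0.28 for interferon and its signalling, and -0.22 for interferon-stimulated genes, beside 0.0 for all genes. Before adjustment, 0, 1, 1, 1 and 0 of them reached p under 0.05. The lowest p there belonged to Rnaseh2c, a subunit of the nuclease that removes RNA from RNA-DNA hybrids (log2 fold change -0.75, FDR 0.494), followed by Tbkbp1 (-0.71, FDR 0.506) and Stat2, which carries the interferon signal (0.65, FDR 0.512). The other named genes of that comparison were Chuk (0.46), Jak1 (0.36), Rsad2 (1.14) and the endosomal RNA sensor gene Tlr3 (1.26) above 0 and Rnaseh2a (-0.55), Ddx41 (-0.37) and Ifi27 (-0.79) below 0, with FDR of 0.549 to 0.604.

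At P0 edgeR called 0 genes of the 5 lists against WT in each mutant. In Dnmt3l KO, 15 of 17 other nucleic acid sensors had a log2 fold change above 0 (median 0.48; 4 at p under 0.05 before adjustment), where 52.7% of all genes did. Ifi204 (1.77, FDR 0.311) and Ifi203 (1.11, FDR 0.322), DNA-binding proteins of an interferon-inducible family, had the lowest p of that list. Ifi204 stood at 2.97 and 1.6 CPM in WT against 3.33 and 12.3, and Ifi203 at 12.1 and 8.31 against 11.7 and 32.1, so that the groups overlapped for Ifi203. Without Dnmt3l KO replicate 2 their values were 0.52 and 0.18. Irf9, the DNA-binding subunit of the complex that interferon activates, was at a log2 fold change of 1.18 (FDR 0.256), and DESeq2 called it at an FDR of 0.0168, while without Dnmt3l KO replicate 2 the edgeR value was 0.7. It stood at 17.6 and 14.3 CPM in WT, 15.9 to 19.8 for Pld6 KO, 26.3 and 45.8 for Dnmt3l KO, and 22.1 to 25.5 in the DKO. Irf7, which amplifies interferon transcription, had values of 1.5 in Dnmt3l KO (FDR 0.349), or 0.52 without replicate 2, and 1.31 in the DKO (FDR 0.6), or 0.75 without DKO replicate 1. Rela, a subunit of NF-kB, had a lower p than Irf7 in Dnmt3l KO and was at -0.61 (FDR 0.344), with 76.6 and 55.7 CPM in WT against 38.1 and 48.4. Rnaseh2b was at 0.5 (FDR 0.364) and Mov10 at -0.53 (FDR 0.384) in that comparison. Among the interferon-stimulated genes, Gbp3 (2.07) and Oasl2 (1.93), both at an FDR of 0.256, had the lowest p in Dnmt3l KO, and were at 1.43 and 0.78 without replicate 2. In the DKO they were Xaf1 (3.02, FDR 0.341), a pro-apoptotic gene, and Bst2 (0.96, FDR 0.392), which tethers virus particles. Xaf1 stood at 3.14 and 2.6 CPM in WT, 2.94 to 18.1 for Pld6 KO, 5.35 and 12.1 for Dnmt3l KO, and 16 to 27.7 in the DKO, and was called when the DKO and WT libraries were fitted alone (FDR 0.00161). Aim2, a sensor of cytosolic DNA, had a log2 fold change of 1.47 in the DKO (FDR 0.408). The other named genes of the DKO were Rnf125 (0.92), Adarb1 (0.64) and Irf9 (0.6) above 0 and Rnaseh2a (-0.45) and Jak1 (-0.31) below 0, with FDR of 0.52 to 0.704. In Pld6 KO at P0 they were Xaf1 (1.64), Gbp3 (1.11), Rnf125 (0.88), Ikbke (0.48) and Irf9 (0.2) above 0 and Dhx9 (-0.38), Zc3hav1 (-0.36), Xrn1 (-0.32), Dhx33 (-0.29) and Jak1 (-0.26) below 0, with FDR of 0.963 to 0.97.

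Transcripts of the interferon genes on the list of interferon and its signalling were at or near 0, and interferon genes outside that list were not examined. Ifnb1 had 0 counts in all 11 P0 libraries, where 3 counts correspond to 0.128 to 0.303 CPM, and 0.143 CPM at most at L/Z. The other limits list and downstream signalling at P0 had medians of -0.16 and 0.05 in Dnmt3l KO, -0.15 and -0.04 in the DKO, and -0.07 and -0.1 in Pld6 KO, with 2 and 2, 2 and 1, and 0 and 1 genes at p under 0.05 before adjustment. Interferon, its receptor and its signalling had medians of 0.03, -0.14 and -0.12 in the same order, and other sensors had medians of 0.51 in the DKO (12 of 17 above 0) and -0.05 in Pld6 KO (8 of 17).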

How the data were processed

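Polyadenylated RNA was sequenced from stranded TruSeq libraries as single reads of 50 bp (L/Z) or paired reads of 100 bp (P0). The authors aligned reads with TopHat to mm10, and Cuffdiff then estimated the abundance of RefSeq genes. Tool versions are not given in the sources used here. The deposited estimated counts per gene and library were not whole in every case (97.8% of values at L/Z and 97.7% at P0 were) and were rounded. The deposited FPKM values are the same fragments divided by the authors by transcript length and library size. Groups came from the labels. Replicates are numbered from 0 in the tables and from 1 in the labels, so the lower was taken as the lower. The labels call the libraries of a group biological replicates and do not say whether they came from separate animals. P-values measure the spread between these libraries.

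Genes left out for a failed estimate numbered 6 at L/Z and 2 at P0, with no member among them. Counts were filtered with filterByExpr, normalized by TMM and tested with edgeR 4.0.16 in R 4.3.3, all groups of a stage in one fit. P-values were adjusted over all genes tested. Intervals are 95% and cover the spread between libraries. Departure from additivity and differences between stages were called with no fold threshold. Stage differences were fitted over 16547 genes. Alternatives used DESeq2 1.42.0, limma 3.58.1 on log2(FPKM + 1) and log2(FPKM + 0.1), other filters, scalings and designs, and each library left out. Scripts were tested on simulated counts.

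All 10 members are given against WT, and in the other comparisons by their range and the lowest FDR. Of each pathway list, the text names every gene called against WT, and otherwise at most the 2 genes with the lowest p, except 2 genes that are not reported here. Per-library values of pathway genes that were not called were added after their fits were seen. The members and lists were chosen with earlier results of these data known. Gene positions are from GENCODE and RefSeq for GRCm38. Totals and floors cover counting error alone.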

Additional observations from a re-analysis of the deposited data

How the results depend on the processing

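No member was called in any of 30 settings, the reported one and 29 alternatives of which 17 left out 1 library each. Over 107 member log2 fold changes, 46 changed sign in at least 1 alternative (97 of 1689 values), the largest being Ddx58 in L/Z Pld6 KO, 1.11 as reported and -0.25 without Pld6 KO replicate 1. With the replicate number as a replicate block, 0 members were called in every comparison. The numbers did not pair the libraries of all groups. Deviations of same-numbered libraries correlated at 0.485 between L/Z WT and Pld6 KO, whose first libraries were both rich in Rn45s (8.27% and 8.06%). They correlated at -0.144 between L/Z WT and Dnmt3l KO, and at -0.332 to 0.271 at P0. The reported fit has no term for the likeness of same-numbered L/Z WT and Pld6 KO libraries. Calls over all genes in the replicate block fit were 24 for L/Z Pld6 KO (33 as reported), 912 for Dnmt3l KO (802) and 4 for Dnmt3l KO against Pld6 KO (7). Crossing the 2 Dnmt3l KO numbers, an alternative chosen after seeing the data, gave 100, 1282 and 516. In the crossed fit Mavs in L/Z Dnmt3l KO had an FDR of 0.0482 at a log2 fold change of -0.76, under the fold threshold, and over the alternatives other than leaving out a library its values lay between -0.81 and -0.51 with FDR up to 0.254. DESeq2 called 90, 994 and 355 genes in the 3 L/Z comparisons, where the GC and length offset called 32, 271 and 16. A factor for the 45S-rich libraries gave 101, 662 and 25, and leaving out 1 library gave 7 to 74, 1 to 1139 and 0 to 137. Depth limits the L/Z values of Tmem173 (0 to 13 counts a library), Ddx58 (8 to 33) and Dhx58 (7 to 32) most.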
